A study of Arabidopsis thaliana with 18 samples.

Results

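Dry seeds of the Arabidopsis thaliana mutant rdo5-1 were compared with dry seeds of the line NIL-DOG1, for all 30014 genes of the deposited array table. The 6 arrays whose titles name dry seeds were taken, out of 18 in the series: 3 of rdo5-1 and 3 of NIL-DOG1. The other 12 arrays hold the same genotypes as siliques at 14 days after pollination and as seeds imbibed for 6 h, and they entered here for the estimate of spread and for the stage differences. Each sample's total RNA was read on an Affymetrix AGRONOMICS1 array, which tiles the genome of this plant, and each value is a log2 signal summarised per gene.

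The rdo5-1 group carries a mutant allele of RDO5, and NIL-DOG1, which takes its name from the dormancy locus DOG1, is the group labelled as wild type. All plants were grown on soil in a chamber with 16 h of light at 22 °C and 8 h of dark at 16 °C, and no group was treated. The seeds were freshly harvested, and the replicates are called biological, without saying how many plants or harvests they came from. P-values therefore measure the spread between these arrays. The labels do not say whether rdo5-1 was backcrossed, and no second allele was measured. Whole dry seeds hold embryo, endosperm and seed coat, so fewer cells of a type and less RNA per cell cannot be told apart in any value below.

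A mature seed is dormant when it does not germinate although water, light and temperature would allow it. DOG1 sets the depth of dormancy in Arabidopsis, abscisic acid imposes and keeps it, and gibberellin promotes germination. RDO5 (REDUCED DORMANCY 5) codes for a phosphatase-like protein (type 2C), and rdo5 mutants have reduced dormancy. Dry seeds transcribe little, and their RNA is mostly a store laid down during maturation, rich in messages for storage proteins, late embryogenesis abundant (LEA) proteins and small heat shock proteins.

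The 6 arrays were alike in scale. Array medians were 4.07 to 4.12 in rdo5-1 and 4.08 to 4.09 in NIL-DOG1, and arrays correlated across genes at 0.993 within rdo5-1, 0.991 to 0.992 within NIL-DOG1 and 0.991 to 0.992 between the genotypes. Of their variance, 24.5% lay on a first principal component that separated the genotypes, and 20.7% and 19.8% lay on the next components. LEA and photosynthesis markers told dry seeds from siliques, but hardly from imbibed seeds. Storage and oil body genes were high at all stages. The median level of 17 storage and oil body genes was 13.84 to 13.87 on rdo5-1 arrays and 13.78 to 13.83 on NIL-DOG1 arrays, and that of 31 LEA genes 12.77 to 12.80 on rdo5-1 arrays and 12.78 to 12.87 on NIL-DOG1 arrays. By contrast, 22 photosynthesis genes had median levels of 4.85 to 4.96 in dry rdo5-1 and 4.82 to 4.95 in dry NIL-DOG1 seeds, against 11.40 to 11.43 in rdo5-1 and 11.19 to 11.24 in NIL-DOG1 siliques. The 15 silique wall, 15 seed coat and 6 endosperm markers had medians of 3.60 to 3.61, 3.40 to 3.63 and 4.14 to 4.35 in rdo5-1, against 3.52 to 3.58, 3.50 to 3.76 and 3.89 to 4.14 in NIL-DOG1. None of these markers was called between the genotypes in dry seeds.

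Few genes were called between dry rdo5-1 and NIL-DOG1 seeds. In a limma model fitted to all 18 arrays, 41 genes (0.137% of those tested) had a Benjamini-Hochberg adjusted p under 0.05. Higher in rdo5-1 were 27 (0.0900%), led by the noncoding RNA AT4G04077, and lower were 14 (0.0466%), among them RDO5. Before adjustment, 2504 genes (8.34%) had p under 0.05. The median absolute log2 difference was 0.745 for the called genes and 0.0864 for all genes. A change of at least 2-fold was reached by 10 of the higher and 2 of the lower genes.

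**Figure D1:**
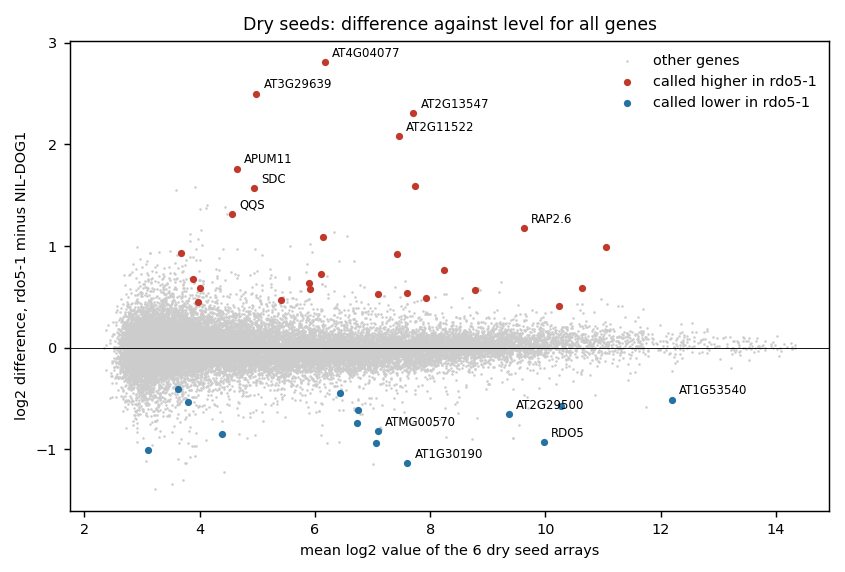
Log2 difference between dry rdo5-1 and NIL-DOG1 seeds (rdo5-1 minus NIL-DOG1, vertical axis) against the mean log2 value of the 6 arrays (horizontal axis) for 30014 genes. Red points are the 27 genes called higher and blue points the 14 called lower. Most genes lie near 0, and the called genes span the scale from dim to bright, with the largest rise, 2.81, at a middle level.

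RDO5 in dry seeds checked the genotype labels. Its log2 values were 9.44, 9.45 and 9.64 on the rdo5-1 arrays, against 10.43, 10.41 and 10.47 on the NIL-DOG1 arrays. The groups lay 0.78 apart at their nearest arrays, with the mutant lower. The labels give neither the lesion of rdo5-1 nor where the probes lie relative to it. The difference was -0.93 ± 0.14 (SE; limma adjusted p = 0.0085), a level 1.90-fold higher in NIL-DOG1. This call was lost without rdo5-1 array 1 (-0.89, adjusted p = 0.0648) and without rdo5-1 array 2 (-0.90, adjusted p = 0.057). It was kept with the 6 dry seed arrays fitted alone (adjusted p = 0.0466), and over all alternatives the adjusted p was 4.2e-05 to 0.0648.

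Of the 32 measured dormancy and seed maturation regulators, RDO5 alone was called. DOG1 was measured at 9.39, 9.48 and 9.42 in rdo5-1, against 9.10, 9.17 and 9.13 in NIL-DOG1. All rdo5-1 arrays were above all NIL-DOG1 arrays, as were those of 7.63% of all genes, but the difference of 0.29 ± 0.09 missed the threshold (adjusted p = 0.278, and 0.143 to 0.527 under the alternatives). The other regulators whose arrays did not overlap were all lower in rdo5-1, and none passed. They were the maturation factors FUS3 (-0.37) and LEC2 (-0.20), the flowering repressor FLC (-0.36), the transcription factor gene WRKY41 (-0.34), which acts on ABI3, and the histone deacetylase gene HDA6 (-0.13). WRKY41, among the 30% dimmest genes, was at 2.99, 2.76 and 2.77 in rdo5-1, against 3.13, 3.28 and 3.13 in NIL-DOG1. LEC2 was also dim, with means of 3.28 in rdo5-1 and 3.48 in NIL-DOG1. Non-overlap in this direction was seen for 7.05% of all genes. ABI3, a central regulator of seed maturation, differed by less than 0.01, and the transcription elongation factor gene RDO2 by 0.04. The median over the list was -0.01, beside 0.0015 over all genes.

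Among 17 genes for Pumilio proteins, which bind RNA and control its translation and decay, APUM11 was called. It had 5.45, 5.49 and 5.64 in rdo5-1, against 3.65, 3.68 and 3.96 in NIL-DOG1, with every mutant array more than 1 log2 unit above every control array. The difference was 1.76 ± 0.20 (adjusted p = 6.0e-04), or 3.38-fold. APUM9 was at 3.72, 4.01 and 4.05 in rdo5-1, against 3.12, 3.36 and 3.13 in NIL-DOG1. Its groups were 0.37 apart, and the difference of 0.72 ± 0.14 was not called (adjusted p = 0.0584, and 0.0147 to 0.272 when refitted under the alternatives). The remaining 15 members differed by between -0.18 and 0.12. APUM9 and APUM11 are not neighbours in the table, lying on chromosomes 1 and 4.

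SDC and QQS, from a list of 8 silenced and imprinted genes, rose. SDC encodes an F-box protein and is kept silent by DNA methylation in most tissues. It was at 5.66, 5.84 and 5.71 in rdo5-1, against 4.48, 4.23 and 3.78 in NIL-DOG1, and the mutant arrays were closer to each other than the controls were. The difference was 1.57 ± 0.14 (adjusted p = 5.0e-05). QQS, an orphan gene that affects carbon and nitrogen allocation and whose level varies with its methylation, was at 4.94, 5.33 and 5.38 in rdo5-1, against 3.92, 3.98 and 3.81 in NIL-DOG1. It differed by 1.31 ± 0.20 (adjusted p = 0.011), and the call was lost in 4 of 18 fits that left out 1 array, at most to an adjusted p of 0.0655, without rdo5-1 dry seed array 2. The other 6 members, among them the imprinted genes FWA, MEA and PHE1, differed by between -0.12 and 0.08. Of 21 genes of the DNA methylation machinery none was called, and 3 were lower at an unadjusted p under 0.05. The nearest was MOM1, which maintains transcriptional silencing, at 3.45, 3.50 and 3.48 in rdo5-1 and 3.97, 3.85 and 3.69 in NIL-DOG1 (-0.36, adjusted p = 0.0688). The maintenance methyltransferase gene MET1 and the remodeller gene DDM1 differed by -0.01 and 0.01.

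Of the 27 higher genes, 15 have no symbol in the gene table, as have 20054 of all 30014 genes. AT4G04077, annotated as a long noncoding RNA, was at 7.85, 7.69 and 7.20 in rdo5-1, against 4.60, 4.89 and 4.82 in NIL-DOG1. Its lowest mutant array stood 2.31 above its highest control array, and the difference of 2.81 ± 0.14 (adjusted p = 8.8e-08), or 7.01-fold, was the largest of all genes. The noncoding RNA AT1G67105 was at 8.85, 8.39 and 8.36 in rdo5-1, against 7.07, 6.90 and 6.85 in NIL-DOG1 (1.59 ± 0.15, adjusted p = 1.05e-04). These are the only called genes of their annotation classes, which hold 0.593% (long noncoding) and 0.440% (other noncoding) of all genes.

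Protein-coding loci without a symbol followed. AT2G13547 was at 9.21, 8.38 and 8.99 in rdo5-1, against 6.67, 6.46 and 6.52 in NIL-DOG1 (2.31 ± 0.22, adjusted p = 1.05e-04). AT2G11522 was at 8.37, 8.42 and 8.68, against 6.83, 6.23 and 6.18 in NIL-DOG1 (2.08 ± 0.24, adjusted p = 7.2e-04). In both, the genotypes were more than 1.5 log2 units apart. AT3G29639 was at 6.33, 5.03 and 7.34 in rdo5-1, against 4.11, 3.34 and 3.75 in NIL-DOG1. Its mutant arrays were spread over more than 2 log2 units, and its difference of 2.50 ± 0.46 (adjusted p = 0.0458) lost the call in 15 of the 18 fits without 1 array, at most to 0.163, without NIL-DOG1 dry seed array 2. AT5G37480 differed by 1.09 ± 0.11 (adjusted p = 1.5e-04), AT5G27850 by 0.99 ± 0.07 (4.6e-06), AT2G41590 by 0.93 ± 0.14 (0.0085) and AT4G09580 by 0.92 ± 0.07 (4.6e-06). AT5G27850 and AT4G09580 combined small SEs with tight groups: 11.61, 11.54 and 11.46 in rdo5-1 against 10.60, 10.48 and 10.58 in NIL-DOG1 for AT5G27850, and 7.85, 7.89 and 7.94 in rdo5-1 against 6.97, 6.90 and 7.05 in NIL-DOG1 for AT4G09580.

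**Figure D2:**
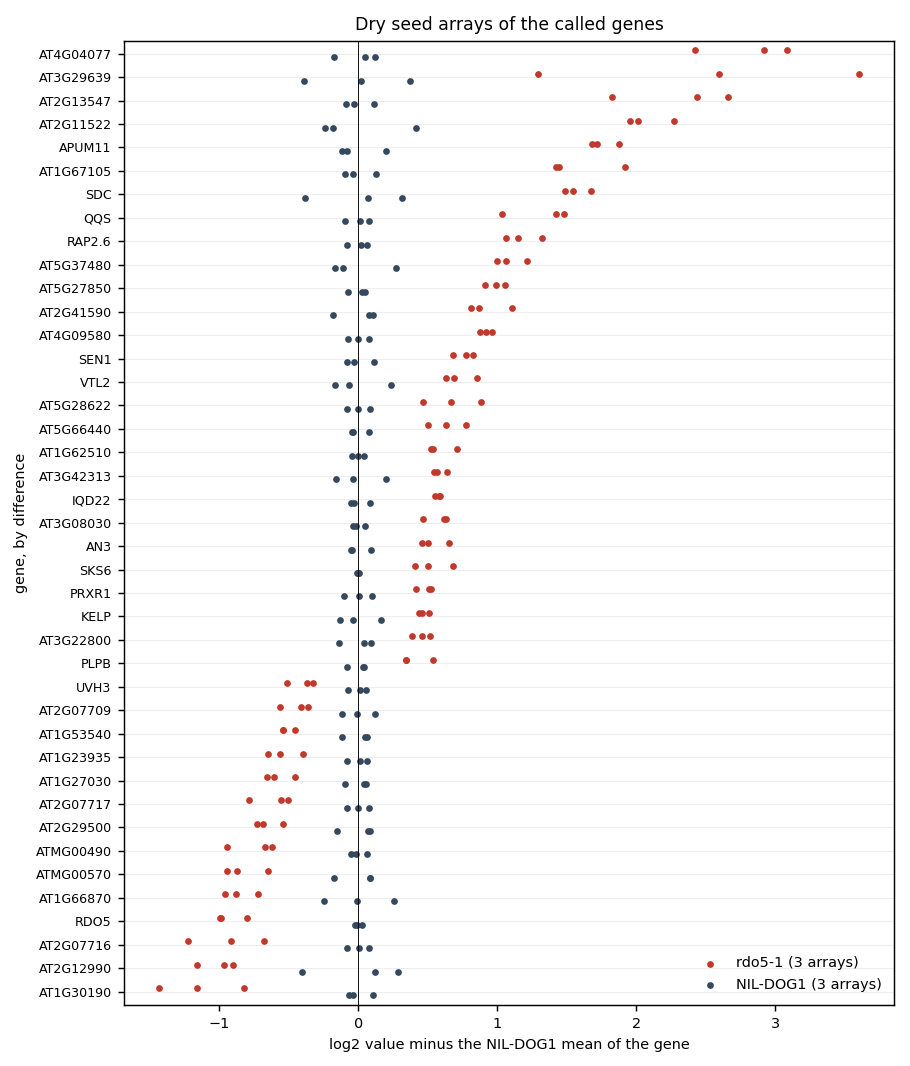
Log2 value on each dry seed array minus the NIL-DOG1 mean of the gene (horizontal axis) for the 41 called genes (rows, ordered by difference), with rdo5-1 arrays in red and NIL-DOG1 arrays in dark blue. The NIL-DOG1 arrays centre on 0 because their mean was subtracted. No gene shows overlapping groups, in a set chosen by this same contrast, and AT3G29639 has the widest spread among the rdo5-1 arrays.

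Regulators and stress genes were among the called genes with a symbol. RAP2.6, a transcription factor of the ethylene response factor (ERF) family that responds to abscisic acid and stress, was at 10.19, 10.36 and 10.10 in rdo5-1, against 9.06, 8.95 and 9.10 in NIL-DOG1. The groups were 1.00 apart, and the difference was 1.18 ± 0.19 (adjusted p = 0.0173). Without rdo5-1 dry seed array 2 its adjusted p was 0.107, the highest of the 5 left-out arrays that ended the call. It was the single called member of 25 ethylene and ERF genes. ERF5 had 4.92, 5.26 and 4.76 in rdo5-1, against 4.71, 4.22 and 4.47 in NIL-DOG1 (0.51, adjusted p = 0.217). SEN1, a gene induced by darkness and senescence, was at 8.69, 8.64 and 8.55 in rdo5-1, against 7.98, 7.79 and 7.84 in NIL-DOG1, and rose by 0.76 ± 0.09 (adjusted p = 5.7e-04).

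Smaller rises had other functions. VTL2, of the vacuolar iron transporter-like family, was at 6.37, 6.59 and 6.43 in rdo5-1, against 5.67, 5.57 and 5.98 in NIL-DOG1 (0.72, adjusted p = 0.0365, and 0.159 at most, without rdo5-1 dry seed array 2). IQD22, of a calmodulin-binding family, rose by 0.57 (adjusted p = 0.0050). AN3, a coactivator of leaf cell proliferation, rose by 0.54 (0.0454), SKS6, of the multicopper oxidase-like SKU5 family, by 0.53 (0.0458), the peroxidase gene PRXR1 by 0.48 (0.0117), the transcriptional coactivator gene KELP by 0.47 (0.0415) and PLPB, which encodes a PAS/LOV light-sensing protein, by 0.41 (0.0415). IQD22 kept its call in each of the 18 fits without 1 array. AN3, SKS6, PRXR1, KELP and PLPB lost theirs in 15, 16, 4, 11 and 15 of them. The other higher genes without a symbol, from AT5G28622 (0.67) to AT3G22800 (0.45), included the pseudogenes AT5G28622 and AT3G42313.

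Of the 14 lower genes, 2 carry a symbol, as do 9960 of all 30014 genes. Beside RDO5 this is UVH3, a nuclease gene of nucleotide excision repair, at 3.32, 3.50 and 3.46 in rdo5-1 and 3.84, 3.89 and 3.76 in NIL-DOG1 (-0.40, adjusted p = 0.0392), near the dim end of the scale. The largest fall of the 14 called lower was that of AT1G30190, at 7.02, 6.74 and 7.35 in rdo5-1, against 8.13, 8.28 and 8.11 in NIL-DOG1. The groups were 0.75 apart, with a difference of -1.13 ± 0.12 (adjusted p = 2.7e-04). AT2G12990, a pseudogene among the 30% dimmest genes, differed by -1.01 (adjusted p = 0.0458), AT1G66870 by -0.85 (0.0122), AT1G27030 by -0.57 (0.0458) and AT1G23935 by -0.54 (0.0264). The remaining 7 lower genes belong to the small heat shock proteins or to the mitochondrial sequences described below.

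The small heat shock protein genes, chaperones that dry seeds store, were lower in rdo5-1 in part. Of 19 members, 2 fell, and 12 (63.2%) had all rdo5-1 arrays below all NIL-DOG1 arrays, as had 7.05% of all genes. The list's median difference was -0.24, with 17 members below 0, beside a median of 0.0015 and 49.5% below 0 over all genes. AT2G29500 was at 8.96, 8.999 and 9.15 in rdo5-1, against 9.53, 9.75 and 9.77 in NIL-DOG1 (-0.65 ± 0.09, adjusted p = 0.0043). AT1G53540 was at 11.91, 11.90 and 11.99 in rdo5-1, against 12.33, 12.51 and 12.50 in NIL-DOG1 (-0.51 ± 0.08, adjusted p = 0.018). AT2G29500 kept its call in each of the 18 fits without 1 array, and AT1G53540 lost it in 4, at most to 0.101, without rdo5-1 dry seed array 2.

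The widest gap in the list was that of HSP22.0, a small heat shock protein of the endoplasmic reticulum, which was not called. It was at 6.35, 6.43 and 6.55 in rdo5-1, against 7.44, 7.53 and 7.79 in NIL-DOG1, a difference of -1.14 ± 0.26 (adjusted p = 0.125). AT1G52560 was at 8.37, 8.41 and 8.62 in rdo5-1, against 9.07, 9.15 and 9.24 in NIL-DOG1 (-0.69, adjusted p = 0.154). The mitochondrial HSP23.6-MITO was at 9.40, 9.37 and 9.45 in rdo5-1, against 9.80, 10.11 and 10.09 in NIL-DOG1 (-0.59, adjusted p = 0.211). The groups of each were well apart, and the SE of the fit rests on the spread in all 6 groups, siliques included. In a fit of the 12 dry and imbibed seed arrays, an alternative chosen after seeing the data, these 3 genes were called as well (adjusted p = 0.0147 for HSP22.0, 0.0355 for AT1G52560 and 0.0308 for HSP23.6-MITO). That fit called 5 of the 19 lower, where 13 of all genes (0.0433%) were called lower. It kept 27 of the 41 genes called in the main fit. With the 6 dry seed arrays alone, none of the 19 was called.

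The list was not uniform. The bright HSP17.4, at 13.26, 13.23 and 13.28 in rdo5-1 and 13.26, 13.30 and 13.28 in NIL-DOG1, and HSP17.6A, at 13.31, 13.33 and 13.43 in rdo5-1 and 13.38, 13.40 and 13.39 in NIL-DOG1, overlapped between genotypes. HSP18.2 and AT5G54660 had differences of 0.09 and 0.11. Among 26 heat shock factors and large chaperones none was called (6 were lower at an unadjusted p under 0.05), 23 were below 0, 9 had all rdo5-1 arrays lower and 2 all rdo5-1 arrays higher, and the median was -0.11. Over all genes 49.5% were below 0, 7.05% had all rdo5-1 arrays lower and 7.63% all rdo5-1 arrays higher. HSP90.1, the heat-inducible cytosolic HSP90, was at 10.52, 10.65 and 10.72 in rdo5-1, against 11.06, 11.14 and 11.08 in NIL-DOG1 (-0.46, adjusted p = 0.0688). The disaggregase gene HSP101 was at 9.06, 9.02 and 9.15 in rdo5-1, against 9.32, 9.50 and 9.43 in NIL-DOG1 (-0.34, adjusted p = 0.185). HSFA9, the heat shock factor of seed maturation, differed by -0.02, and the constitutive HSC70-1 by 0.19, with all its rdo5-1 arrays higher.

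**Figure D3:**
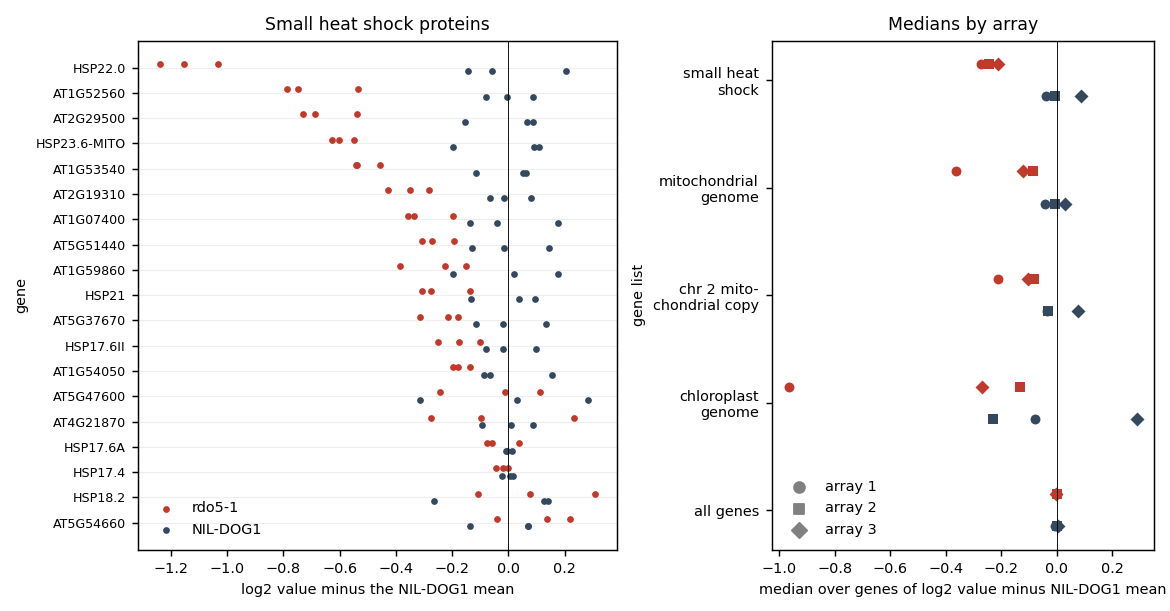
Left, log2 value minus the NIL-DOG1 mean of the gene for the 19 small heat shock protein genes on the 3 rdo5-1 (red) and 3 NIL-DOG1 (dark blue) dry seed arrays. Right, the median over genes of the same quantity for each array, for the small heat shock list, the organelle lists and all genes, with symbols for array number. The small heat shock medians of rdo5-1 lie between -0.27 and -0.21 on its 3 arrays, while the organelle medians of rdo5-1 array 1 (-0.36, -0.21 and -0.97) stand apart from those of arrays 2 and 3.

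Mitochondrial sequences, those of a nuclear copy included, made up the other block of called lower genes. ATMG00570 of the mitochondrial genome was at 6.55, 6.63 and 6.85 in rdo5-1, against 7.33, 7.58 and 7.59 in NIL-DOG1 (-0.82 ± 0.12, adjusted p = 0.0085). ATMG00490 was at 6.16, 6.44 and 6.49 in rdo5-1, against 7.06, 7.17 and 7.09 in NIL-DOG1 (-0.74 ± 0.14, adjusted p = 0.0458). Chromosome 2 carries a large nuclear copy of mitochondrial DNA, and 3 transcribed pseudogenes of that stretch fell too. AT2G07716 was at 6.31, 6.61 and 6.85 in rdo5-1, against 7.45, 7.54 and 7.61 in NIL-DOG1 (-0.94 ± 0.13, adjusted p = 0.0069), and AT2G07717 and AT2G07709 differed by -0.62 and -0.44 (0.0421 and 0.0365). All 5 had their lowest value on rdo5-1 array 1. ATMG00570 was also called lower in siliques (-0.84, adjusted p = 0.0052) and in imbibed seeds (-0.77, 0.0059). So was AT2G07716, in siliques (-0.84, 0.0121) and in imbibed seeds (-0.84, 0.0068). ATMG00490, AT2G07717 and AT2G07709 were called at neither stage. Of the mitochondrial codes, 19 have values identical to those of a chromosome 2 code, so the 2 sets are not independent and signal from the copies cannot be told apart.

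One array weighed on the medians of these lists in dry seeds. The median over 93 mitochondrial codes of the value minus the NIL-DOG1 mean was -0.36, -0.09 and -0.12 on rdo5-1 arrays 1, 2 and 3, against -0.04, -0.01 and 0.03 on the NIL-DOG1 arrays. Over 14 chloroplast codes it was -0.97, -0.13 and -0.27 on the rdo5-1 arrays, against -0.08, -0.23 and 0.29 on the NIL-DOG1 arrays. The mitochondrial list had a median difference of -0.19, with 70 of 93 codes below 0, 29 (31.2%) with all rdo5-1 arrays lower and 2 called lower, beside 49.5%, 7.05% and 0.0466% of all genes. Without rdo5-1 array 1 it was -0.09, with 59 below 0, 29 with all rdo5-1 arrays lower (31.2%, beside 11.6% of all genes with 2 arrays against 3) and none called. The mitochondrial list also had 0 called without array 2 and 1 called without array 3. The chromosome 2 stretch, 109 codes, had a median of -0.10 and 3 called, and -0.08 and 1 called without that array. The chloroplast list, 14 codes with 12 distinct sets of values, had a median of -0.41 with all codes below 0, 5 lower at an unadjusted p under 0.05 and none called, and -0.24 with 12 below 0 without array 1. For the small heat shock list the median was -0.20 without array 1, with 18 of 19 below 0, 1 called and 12 with all rdo5-1 arrays lower. In siliques the median difference was -0.07 for the mitochondrial list, -0.05 for the chromosome 2 stretch and -0.37 for the chloroplast list. In imbibed seeds these medians were -0.12, -0.10 and -0.19. The part of array 1 in the organelle results beyond these values was not tested.

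No member of the abscisic acid and gibberellin lists was called. Of 15 abscisic acid synthesis and breakdown genes, 1 was lower at an unadjusted p under 0.05, beside 8.34% of all genes in either direction. NCED5, for an enzyme of the regulated step of abscisic acid synthesis, was at 5.84, 5.91 and 6.06 in rdo5-1, against 6.40, 6.32 and 6.53 in NIL-DOG1 (-0.48 ± 0.10, adjusted p = 0.0688). Its homologue NCED6, expressed in the endosperm, lay the other way, at 5.29, 5.15 and 5.26 in rdo5-1, against 4.87, 4.72 and 4.90 in NIL-DOG1 (0.40 ± 0.20, adjusted p = 0.614). These were the only members clear of overlap, 13.3% of the list beside 14.7% of all genes, and neither difference passed. In the fit of the 12 seed arrays the adjusted p was 0.0645 for NCED6 (up to 0.797 under the other alternatives) and 0.165 for NCED5. CYP707A2, which breaks abscisic acid down in imbibed seeds, and NCED9 differed by 0.07 and 0.04.

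Among 34 abscisic acid signalling genes, 3 were higher and 7 lower at an unadjusted p under 0.05, 6 had all rdo5-1 arrays higher and 8 all rdo5-1 arrays lower (7.63% and 7.05% of all genes, of which 8.34% had an unadjusted p under 0.05 in either direction), and the median was 0.02 (0.00 after quantile normalization). The type 2C phosphatase genes HAI1, HAI2 and HAI3, negative regulators that abscisic acid induces, differed by -0.39, -0.40 and -0.36 (adjusted p = 0.317, 0.419 and 0.348). HAI1 was at 7.30, 7.42 and 7.22 in rdo5-1, against 7.69, 7.63 and 7.80 in NIL-DOG1. The phosphatase genes AHG3, HAB1 and HAB2 also had all rdo5-1 arrays lower (-0.21, -0.23 and -0.13). AHG1, a phosphatase gene of seed dormancy, had all rdo5-1 arrays higher (0.09). The phosphatase genes ABI1 and ABI2 overlapped between genotypes (0.22 and -0.12). The kinase gene SNRK2.3 and the receptor gene PYL4 lay at 0.25 and 0.38, again without overlap and without a call. The 26 gibberellin genes had a median of 0.03, with 3 higher and 2 lower at an unadjusted p under 0.05. GA2OX6, which inactivates gibberellin, was at 6.69, 6.80 and 6.64 in rdo5-1, against 7.28, 7.22 and 7.41 in NIL-DOG1 (-0.59, adjusted p = 0.235). KAO2, of gibberellin synthesis, was at 8.06, 8.02 and 8.09 in rdo5-1, against 7.66, 7.81 and 7.63 in NIL-DOG1 (0.36, adjusted p = 0.174), and GASA6, a gibberellin-regulated gene, was 0.68 higher (0.327). The 20 jasmonate genes held no call either (2 higher and 2 lower at an unadjusted p under 0.05), and their median was 0.01 (-0.002 after centring).

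Reserve and protection genes showed small differences. Of 20 genes of oil mobilisation and the glyoxylate cycle none was called, 3 were higher at an unadjusted p under 0.05, 17 lay above 0 and 9 had all rdo5-1 arrays higher, with a median of 0.09, beside 50.5% above 0 and 7.63% without overlap over all genes. Peroxisomal malate dehydrogenase PMDH1 was at 9.98, 9.99 and 9.94 in rdo5-1, against 9.78, 9.76 and 9.74 in NIL-DOG1 (0.21, adjusted p = 0.402). The malate synthase gene MLS and the isocitrate lyase gene ICL, which define the glyoxylate cycle, differed by 0.19 and 0.09. The median of 21 antioxidant, repair and glutathione transferase genes was 0.08, with 6 having all rdo5-1 arrays higher, 3 higher at an unadjusted p under 0.05 and none called. Ascorbate peroxidase APX1 was at 5.77, 5.95 and 5.86 in rdo5-1, against 5.53, 5.35 and 5.23 in NIL-DOG1 (0.49, adjusted p = 0.179), and PIMT1, which repairs aged proteins and is linked to seed longevity, was 0.31 higher (0.246).

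The 17 storage and oil body genes differed by between -0.03 and 0.12 with none called, and none of the 31 LEA genes was called, at a median of -0.01. Among the LEA genes, SAG21 differed by 0.57 and AT5G53270 by -0.45 (adjusted p = 0.473 and 0.183). No member was called among 10 genes that loosen cell walls or weaken the endosperm, 10 of ribosome biogenesis, 5 of galactinol and raffinose synthesis and 22 of photosynthesis, with medians of 0.02, -0.06, 0.08 and 0.07. At an unadjusted p under 0.05, 1 cell wall gene was higher and 1 photosynthesis gene lay in each direction. Of 415 measured members of the 22 written lists, 7 were called, beside 0.137% of all genes, and the lists were chosen with earlier results known: RDO5, APUM11, SDC, QQS, RAP2.6, AT2G29500 and AT1G53540.

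**Figure D4:**
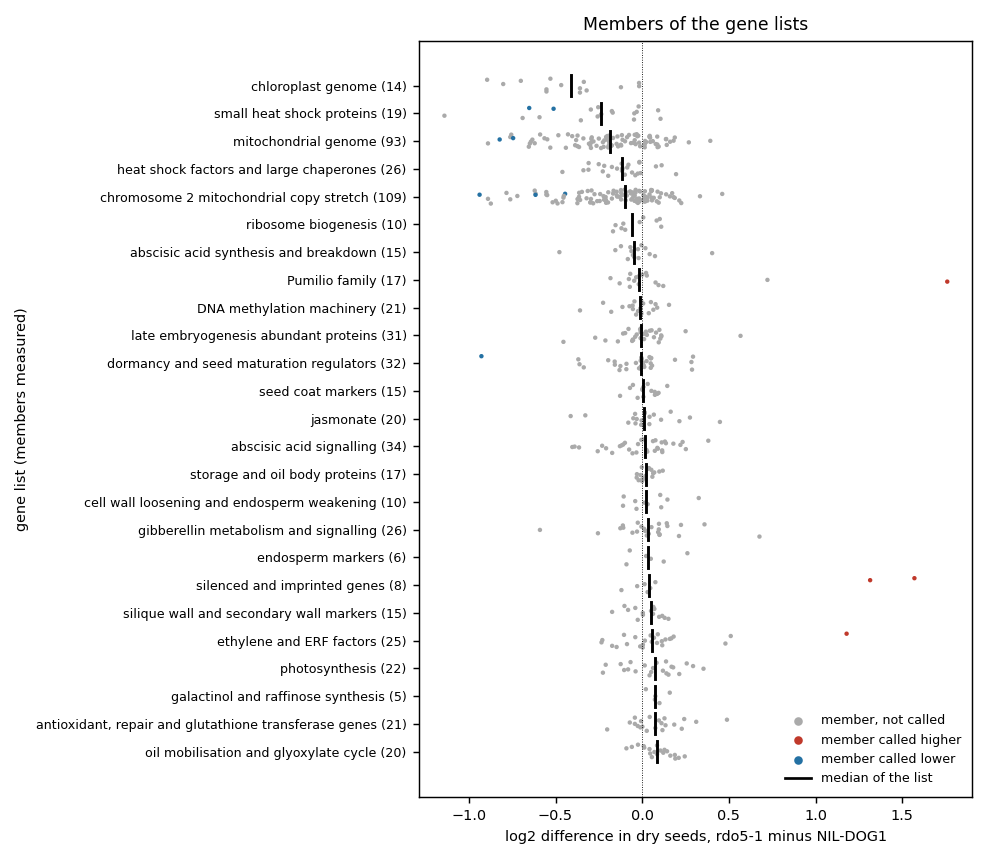
Log2 difference in dry seeds (rdo5-1 minus NIL-DOG1, horizontal axis) for every measured member of each gene list (rows, with the number measured), with called members in red (higher) or blue (lower), other members in grey and the list's median as a bar. Medians lie between -0.41 for the chloroplast genome and 0.09 for oil mobilisation, and the called members of the Pumilio, silenced gene and ethylene lists are far from their lists' medians.

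The dry seed calls were set beside the other stages. Of the 41 genes, 38 had the same sign in imbibed seeds and 32 in siliques, beside 53.9% and 53.7% of all genes, and 25 were also called in the same direction in imbibed seeds and 8 in siliques. Of all genes, 0.633% were called in imbibed seeds (0.506% higher and 0.127% lower) and 0.2% in siliques (0.107% higher and 0.0933% lower). Of the 25, 19 were higher and 6 lower, and of the 8, 5 were higher and 3 lower. The arrays of the stages are separate, but 1 estimate of spread per gene serves all stages. The median over the 27 higher genes was 0.76 in dry seeds, 0.59 in imbibed seeds and 0.11 in siliques. Over the 14 lower genes it was -0.70 in dry seeds, -0.28 in imbibed seeds and -0.23 in siliques. The dry seed medians come from the contrast that chose the genes.

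The difference of the genotype effects was tested directly. Between dry seeds and siliques it was called for 15 genes (0.05%, with 7.34% at an unadjusted p under 0.05), 8 of them called in dry seeds. AT2G13547 had a genotype difference of 2.31 in dry seeds and -0.08 in siliques, a contrast of 2.39 ± 0.31 (adjusted p = 0.0039). SEN1 differed by 0.76 in dry seeds and -0.18 in siliques (0.94 ± 0.12, adjusted p = 0.0039), and AT4G09580 by 0.92 and 0.03 (0.89 ± 0.09, adjusted p = 6.4e-04). AT1G30190 differed by -1.13 in dry seeds and -0.03 in siliques (-1.11 ± 0.17, adjusted p = 0.0169), and its NIL-DOG1 mean was 8.17 in dry seeds and 3.69 in siliques. The other 4, all higher in dry rdo5-1 seeds, were AT4G04077 (1.72, adjusted p = 0.0019), AT5G37480 (1.02, 0.0169), AT5G27850 (0.88, 0.0015) and AT3G08030 (0.81, 0.0115). RDO5 and APUM11 had contrasts of 0.07 and -0.18 (adjusted p = 0.968 and 0.941).

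Between dry and imbibed seeds the genotype effect differed for 6 genes (0.0200%, with 6.49% at an unadjusted p under 0.05), of which none was called in dry seeds. APUM9 had the largest contrast, with a difference of 0.72 in dry seeds and 5.42 in imbibed seeds (-4.70 ± 0.19, adjusted p = 3.1e-09). VTL2 and PLPB, called in dry seeds, differed by 0.05 and -0.10 in imbibed seeds, but the test of the stage difference did not pass (0.67, adjusted p = 0.369, and 0.51, adjusted p = 0.189). At neither other stage were 16 of the 41 genes called.

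**Figure D5:**
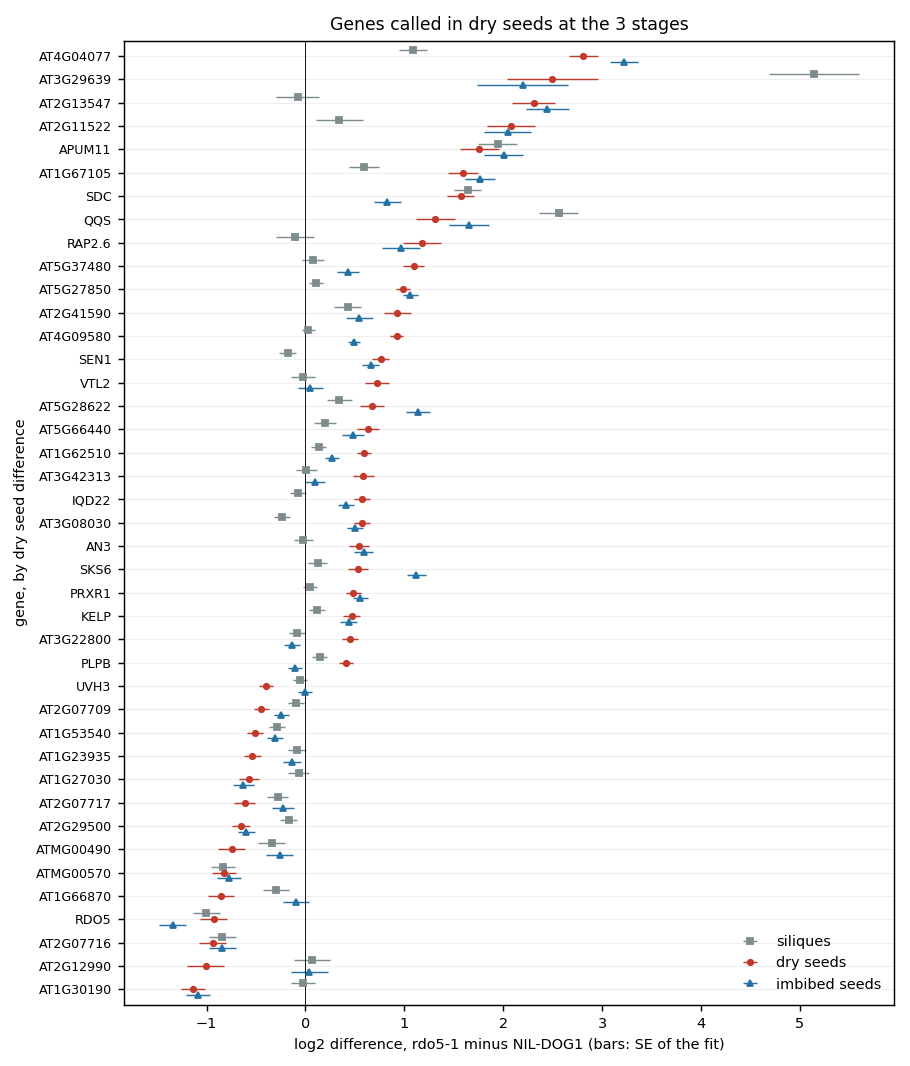
Log2 difference between rdo5-1 and NIL-DOG1 with its SE from the fit (horizontal axis) for the 41 genes called in dry seeds (rows), in siliques (grey squares), dry seeds (red circles) and imbibed seeds (blue triangles). Imbibed values lie near the dry ones for some genes, such as 2.44 beside 2.31 for AT2G13547, and near 0 for others, such as 0.05 for VTL2, and several silique values, such as -0.08 for AT2G13547 and -0.18 for SEN1, lie at or across 0.

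Called genes lay on every chromosome: 10, 10, 6, 8 and 5 on chromosomes 1 to 5 and 2 in the mitochondrial genome. The genes tested there numbered 7519, 4904, 6106, 4620, 6758 and 93, in the same order. Some were close together in the order of the table. APUM11, AT4G09580, KELP and RDO5 lie on chromosome 4 within 257 rows of each other, KELP 14 rows before RDO5. They are the 4 called genes of those 257 rows, a stretch picked from the calls, beside 0.137% of all genes. AT5G28622 and AN3 are 7 rows apart, and ATMG00490 and ATMG00570 9 rows. AT2G07709 lies 7 rows before AT2G07716, and AT2G07717 is the next row. Whether sequence linked to the rdo5-1 mutation differs between the lines was not tested.

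The threshold passed through a dense set of genes. Just inside it were AT3G29639, AT5G28622, SKS6, AT3G22800 and AT1G27030, all with adjusted p = 0.0458. Just outside were AT1G13930 (0.40, adjusted p = 0.0530), RHL2, a subunit gene of topoisomerase VI (-0.46, 0.0551), APUM9 (0.72, 0.0584), AT3G62320 (-0.97, 0.0621) and AT5G65660 (0.42, 0.0627). The count of called genes was 19 when rdo5-1 dry seed array 1 was left out and 21 when array 2 was. It was 26 without rdo5-1 imbibed array 1, and 25, 25 and 27 when NIL-DOG1 dry seed array 1, 2 or 3 was left out. In each of the 18 fits that left out 1 array, 15 of the 41 kept their call, 12 higher and 3 lower. The higher ones were AT4G04077, AT2G13547, AT2G11522, APUM11, AT1G67105, SDC, AT5G37480, AT5G27850, AT4G09580, SEN1, AT1G62510 and IQD22. The lower ones were AT1G30190, AT2G07716 and AT2G29500. With the 6 dry seed arrays fitted alone, 6 were called: AT4G04077, APUM11, RAP2.6, AT5G27850, AT4G09580 and RDO5.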

How the data were processed

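The authors deposited 1 log2 value per gene and array, made with RMA per the submitters' processing notes. Not given in the sources used here are the version of RMA, the probe-set definition, the genome build (so no coordinates are printed) and whether all arrays were normalized together. The TAIR10.1 gene table matched 29464 of 30014 locus codes and left 550 unmatched. It supplied symbols and annotation classes.

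The deposited log2 values entered limma 3.58.1 (R 4.3.3; lmFit, eBayes) as 1 group-means model of the 18 arrays with 12 residual degrees of freedom and no gene filter. Calls were made at a Benjamini-Hochberg adjusted p under 0.05 over all genes. The procedure was tested on simulated data. Python 3.11.15 with pandas 2.3.3 made counts, and matplotlib 3.10.9 the figures. The number of arrays limits the precision, and dim genes have compressed differences.

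The members and gene lists were chosen with earlier results of these data known. Of 424 list members, 9 were not analysed here. Named were RDO5, DOG1, APUM9, APUM11 and NCED6, the 12 largest rises and falls among called genes, called list members, the 5 genes on each side of the threshold and genes of the stage contrasts. Other genes and list members named in the text were chosen after their values were seen. Same-numbered arrays of the genotypes did not deviate together over all genes (correlations -0.02, -0.03 and 0.003). This cannot show whether a number shares a harvest or batch, which the labels do not say. The main fit has no replicate block.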

Additional observations from a re-analysis of the deposited data

Results flagged for a closer look

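These genes are given because the test of the genotype effect between stages passed for them (limma, adjusted p under 0.05). Values are the rdo5-1 minus NIL-DOG1 difference in dry seeds minus that in the other stage, on the log2 scale.

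Against siliques, the effect was more positive in dry seeds for AT4G04077 (1.72), AT2G13547 (2.39), AT5G37480 (1.02), AT5G27850 (0.88), AT4G09580 (0.89), SEN1 (0.94), AT3G08030 (0.81) and AT1G65970 (1.29). AT1G65970 differed by 0.30 in dry seeds and by -0.99 in siliques. It was more negative for AT1G30190 (-1.11), AT1G77230 (-1.29), AT2G04460 (-4.19), AT2G10980 (-1.82), AT3G20460 (-1.02), AT4G03930 (-2.85) and AT5G35480 (-3.24). The last 3 and AT2G04460 and AT2G10980 were called in siliques and not in dry seeds. AT2G04460, a pseudogene, averaged 8.38 in rdo5-1 siliques and 3.69 in NIL-DOG1 siliques, but 4.002 in dry rdo5-1 and 3.497 in dry NIL-DOG1 seeds. AT1G77230 was at a mean of 4.52 in dry rdo5-1 and 5.21 in dry NIL-DOG1 seeds, and differed by -0.68 there and by 0.61 in siliques, called at neither stage.

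Against imbibed seeds, the contrast was -4.70 for APUM9, -0.71 for the zinc-finger homeobox gene HB33, -2.08 for the glutathione transferase gene GSTU22, -0.85 for AT2G24560, -0.86 for the abscisic acid receptor gene PYR1 and 1.09 for AT5G65533. The 6 were called in imbibed seeds and not in dry seeds. PYR1 averaged 9.11 in dry rdo5-1 and 9.10 in dry NIL-DOG1 seeds, and 9.86 in imbibed rdo5-1 and 8.99 in imbibed NIL-DOG1 seeds. GSTU22 averaged 2.95 in dry rdo5-1 and 3.16 in dry NIL-DOG1 seeds, and 5.49 in imbibed rdo5-1 and 3.61 in imbibed NIL-DOG1 seeds.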

How the results depend on the processing

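The 41 dry seed calls became 6 with the 6 dry seed arrays alone, 64 without the 30% dimmest genes and 12 with an absolute log2 difference of at least 1. Leaving out each array in turn gave 19 to 41. Other settings gave 36 (arrays centred on their median), 49 (quantile normalization again), 56 (trend and robust eBayes), 49 (array weights) and 39 (12 dry and imbibed seed arrays, chosen after seeing the data). Of the 41 calls, these other settings kept 35, 39, 41, 41 and 27, in that order. None of the settings changed the sign of any of the 41 differences. With the replicate number as a block, 31 genes were called, 26 of them among the 41. RDO5 differed by -0.99 to -0.89 without 1 array and lost its call without rdo5-1 dry seed array 1 or 2. The contrast of dry with imbibed seeds, 6 genes, gave 1 with the replicate block, 1 with the 12 seed arrays, 3 with an absolute log2 difference of at least 1 and 1 to 10 without 1 array. It was 1 without NIL-DOG1 dry seed array 1 or 2, rdo5-1 dry seed array 1 or 2, NIL-DOG1 or rdo5-1 imbibed array 3, or rdo5-1 silique array 3. The contrast of dry seeds with siliques, 15 genes, stayed between 11 and 16 under the settings other than left-out arrays, and between 12 and 21 without 1 array. The cause of these shifts was not tested. After quantile normalization or centring, the small heat shock list kept medians of -0.22 and -0.25, and the median of all genes moved to -0.002 and -0.01.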
